A study of Mus musculus with 52 samples.

Results

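The 10 genes described here, H2-Aa, H2-Ab1, H2-Eb1, Cd74, Ciita, H2-DMa, H2-DMb1, H2-DMb2, H2-Oa and H2-Ob, encode the machinery that loads peptides onto MHC class II molecules. They were taken by symbol from a table of normalized counts that lists 27525 genes in 32 tumors. Each library is the poly(A) RNA of a subcutaneous tumor, grown in the flank of a male C57BL/6NHsd mouse of 8 to 10 weeks from cultured KPC cells. KPC cells derive from a pancreatic tumor of a mouse that carried Trp53 LSL.R172H/+ with Pdx1-Cre, a Cre driven by the promoter of a pancreatic gene, so the engineered alleles are in the injected cells and the hosts are wild type. Every group used the same cells and hosts, and the tumors were bulk tissue, in which stroma and infiltrating leukocytes were sequenced together with tumor cells. There were 8 untreated tumors, 8 injected into the tumor with 2 µg of ADU-S100, an agonist of STING, 8 from mice given 4 doses of the agonistic anti-LTβR antibody by the intraperitoneal route until day 10, and 8 that received both agents (combination). All were resected on day 14 after treatment started, and the comparisons ask whether either agent, or both together, altered the class II genes.

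MHC class II molecules are heterodimers of an alpha and a beta chain that present peptides from endocytosed proteins to CD4+ T cells. They are assembled with the invariant chain Cd74, which fills the groove until cathepsins degrade it, and the peptide editor H2-DM then exchanges its last fragment for antigen, a step that H2-O restrains. Dendritic cells, macrophages and B cells make class II constitutively through the transactivator Ciita, and interferon-γ induces Ciita in many other cells.

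The promoters of class II genes share short motifs, the X box, bound by the RFX and CREB complexes, and the Y box, an inverted CCAAT motif bound by NF-Y, on which Ciita assembles. For 6 members the 100 bases that precede the start site by 31 to 130 bases are shown. Matches to these motifs can thus be compared between chains, editor and inhibitor. Sequences and coordinates are those of RefSeq for GRCm38.p6, 5′ to 3′ on the strand of the gene, and capitals mark AACNNNTG (the core of the X box) and ATTGG (the Y box) on either strand.
H2-Aa (chr17:34287854-34287953, minus strand): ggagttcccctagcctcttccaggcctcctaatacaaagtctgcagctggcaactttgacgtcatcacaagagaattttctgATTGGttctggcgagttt
H2-Eb1 (chr17:34305737-34305836, plus strand): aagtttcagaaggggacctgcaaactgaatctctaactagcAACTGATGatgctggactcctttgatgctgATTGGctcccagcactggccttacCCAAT
H2-DMb1 (chr17:34153061-34153160, plus strand): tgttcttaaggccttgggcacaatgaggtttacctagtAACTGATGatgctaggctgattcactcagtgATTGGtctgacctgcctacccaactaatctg
H2-DMb2 (chr17:34145119-34145218, plus strand): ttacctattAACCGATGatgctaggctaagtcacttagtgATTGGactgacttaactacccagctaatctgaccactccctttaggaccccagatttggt
H2-Oa (chr17:34092249-34092348, plus strand): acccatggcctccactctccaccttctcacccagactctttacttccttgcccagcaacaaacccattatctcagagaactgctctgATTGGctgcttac
H2-Ob (chr17:34238775-34238874, plus strand): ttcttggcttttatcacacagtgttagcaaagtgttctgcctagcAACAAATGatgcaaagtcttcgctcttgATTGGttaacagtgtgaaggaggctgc
AACNNNTG was followed after 10 to 25 bases by ATTGG in H2-Eb1, H2-DMb1, H2-DMb2 and H2-Ob, starting 89, 92, 121 and 85 bases before the start site. Of 32851 RefSeq promoters of 300 bases (250 before and 50 after the start), 0.597% held this arrangement on either strand, 35.6% held AACNNNTG and 37.4% held ATTGG. H2-Aa and H2-Oa had ATTGG at 48 and 43 bases before the start without AACNNNTG upstream of it in this window. A diverged X box need not match AACNNNTG, so the lack of a match does not mean that an X box is absent. H2-DMa, with 2 promoter entries that are not printed, held neither this arrangement nor AACNNNTG, and its ATTGG lay 198 bases before a start. Their windows of 100 bases lie at 34122702 to 34122801 and 34125388 to 34125487, inside a gene annotated from 34119541 to 34139101. Other starts of H2-DMa were not scanned. Promoter entries for 7 of the 10 members matched, and H2-Ab1, Cd74 and Ciita had none.

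Of the members, 8 lie close together on chromosome 17 of GRCm38 (GENCODE vM21), in the order H2-Oa (34092340 to 34095234), H2-DMa (34119541 to 34139101), H2-DMb2 (34143307 to 34151555), H2-DMb1 (34153072 to 34160230), H2-Ob (34238903 to 34254414), H2-Ab1 (34257689 to 34269419), H2-Aa (34282744 to 34287823, the member on the minus strand) and H2-Eb1 (34305867 to 34316674). Ciita lies on chromosome 16 (10480059 to 10528418) and Cd74 on chromosome 18. Parts of H2-DMa, H2-Eb1 and Ciita overlap genes on the opposite strand. For H2-DMa these include 3094 bases of the Brd2 locus and for Ciita 25888 bases of the Dexi locus. H2-Oa is overlapped over its whole length, 2895 bases, by BC051537, an antisense gene. The libraries mark strand, and whether the counting used it is not stated. H2-DMb1 and H2-DMb2 are near copies, and 38.3% of the 30-base windows of H2-DMb1 transcripts recur in H2-DMb2, so their split is uncertain.

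Recovered reads per library ranged from 12762453 to 15591986 (median 14932388), and normalized totals from 15443912 to 16759706. Values below are normalized counts, reads divided by a size factor per library, and differences are on the log2(normalized count + 1) scale, which understates the change of low genes. Groups were compared by limma's trend test with Benjamini-Hochberg adjustment over all genes tested, and an adjusted p below 0.05 is called a change. Because the tissue was bulk, fewer cells of a type and less RNA per cell cannot be told apart at any value below. The sum of 6 epithelial markers of the tumor cells ranged from 6844 to 28981 and that of 10 macrophage markers from 18763 to 38109, and no marker of any list was at 0 in all tumors of a group.

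The tumors differed in skeletal muscle RNA. The sum of 5 muscle genes (Acta1, Ckm, Myh4, Mylpf and Tnnt3, which encode contractile and energy proteins of the muscle fibre) lay between 5104 and 12211 in 12 tumors and between 54556 and 324487 in the other 20. The 12 were 5 untreated, 2 ADU-S100, 2 anti-LTβR and 3 combination tumors, so muscle RNA was unequally spread over the groups. None of the 5 muscle genes passed the test in any comparison. The medians of H2-Ab1, Ciita and H2-Ob were higher in the tumors with much muscle RNA in every group, and the counts of members and listed genes are therefore also given with the log2 muscle sum as a covariate and with the 20 tumors alone. These alternatives were chosen after seeing the data.

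Most of the 10 class II genes rose with anti-LTβR, alone and in combination, and none passed the test with ADU-S100 alone. Between combination and untreated tumors 8 of 10 members were higher and none lower, with a median difference over the members of 0.60 against -0.02 over all genes tested. In that comparison 43.2% of 16909 genes passed the test, 19.6% as higher. Between anti-LTβR and untreated tumors 7 of 10 were higher, with a median of 0.47 against 0.00, where 15.3% of 16691 genes passed and 7.21% were higher. Between ADU-S100 and untreated tumors none passed, where 0% of 16613 genes did. At an unadjusted p below 0.05 the count in that comparison was 1 of 10, and edgeR and DESeq2 on recovered reads called 0 of 7. For these rules the share of all genes is not given here. No member passed with the muscle covariate (0.00602% of all genes) or in the tumors with much muscle RNA (0.00585%). These 3 comparisons share the same 8 untreated tumors.
With the muscle sum as a covariate the members called were 7 of 10 between combination and untreated tumors (40.6% of all genes called) and 2 of 10, Ciita and H2-Ob, between anti-LTβR and untreated tumors (8.17%). Within the 20 tumors with much muscle RNA they were 2, Ciita and H2-Oa (12% of all genes), and 0 (0.337%), with 3 untreated tumors left. When 7 libraries at or below 14000000 reads were left out, the first count was 4 (34.3% of all genes). All 10 differences from untreated stayed positive in both comparisons, with the covariate and in the tumors with much muscle RNA, and were smaller than without these corrections.

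**Figure D1:**
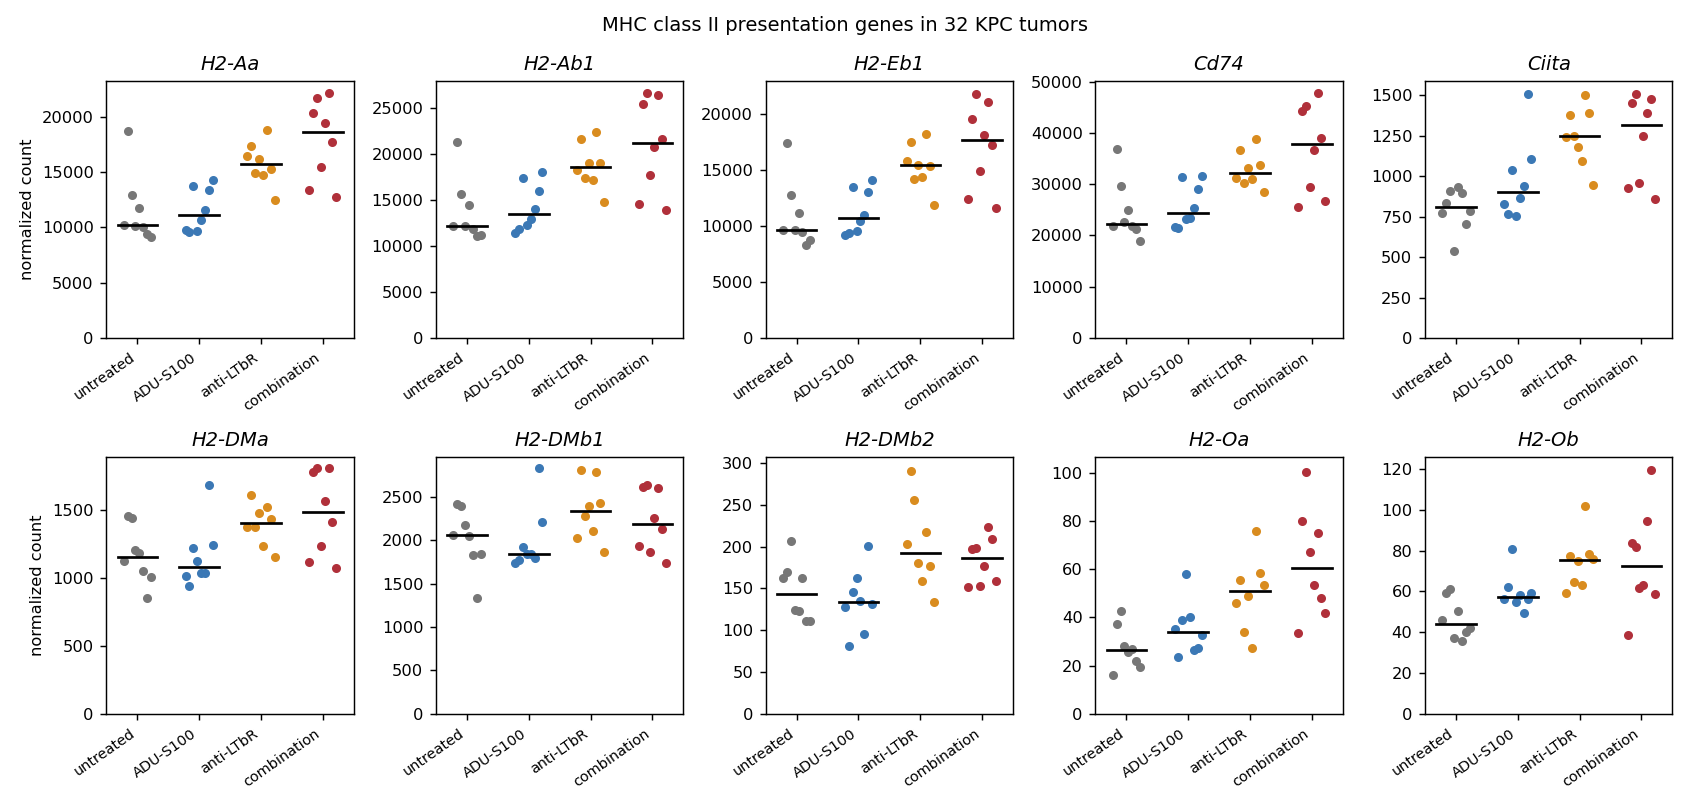
Normalized counts of the 10 members in each of the 32 tumors (points) by treatment group, with the group median as a bar and axes from 0. Ciita values of all 8 anti-LTβR tumors lie above the highest untreated tumor, while the groups overlap for the other members.

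The chains of the class II molecules were among the most abundant of the 10 transcripts. H2-Ab1, the beta chain of I-A, ranged without treatment from 11054 to 21278 (median 12131) and after ADU-S100 from 11394 to 17996 (median 13464). After anti-LTβR it ranged from 14784 to 22394 (median 18622), and after both agents from 13963 to 26600 (median 21202). The groups overlapped. Untreated tumor 2 stood far above the next untreated tumor, at 15700, and combination tumors 1 and 8 were the lowest of their group, at 14589 and 13963. The difference from untreated was 0.60 with the combination (SE 0.16, limma adjusted p = 0.00723), 0.47 with anti-LTβR (SE 0.12, limma adjusted p = 0.0208) and 0.06 with ADU-S100 (95% interval -0.22 to 0.35, limma adjusted p = 0.836). H2-Ab1 was thus 1.52-fold higher in combination tumors, with 4 of 8 above every untreated tumor, and 1.39-fold higher in anti-LTβR tumors, with 2 of 8 above. With the muscle sum as a covariate these differences were 0.41 (limma adjusted p = 0.00667) and 0.33 (limma adjusted p = 0.0691).

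H2-Aa, the alpha chain that pairs with it, had medians of 10204 (untreated), 11110 (ADU-S100), 15731 (anti-LTβR) and 18616 (combination). It rose by 0.64 with the combination (SE 0.15, limma adjusted p = 0.00299) and by 0.48 with anti-LTβR (SE 0.13, limma adjusted p = 0.0208). H2-Eb1, the beta chain of I-E, had medians of 9636, 10723, 15420 and 17691 in the same order. It rose by 0.66 with the combination (SE 0.16, limma adjusted p = 0.00373) and by 0.52 with anti-LTβR (SE 0.13, limma adjusted p = 0.0165). In mice of this strain the alpha chain of I-E is not made, so H2-Eb1 transcripts have no partner for a surface I-E molecule, and H2-Ea was not analysed here. H2-Eb2, a related beta chain gene, had means of 18.5 and 20.6 normalized counts in untreated and combination tumors, and its difference of 0.30 did not pass (limma adjusted p = 0.396).

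Cd74 was the most abundant member, with medians of 22293 (untreated), 24384 (ADU-S100), 32184 (anti-LTβR) and 37820 (combination). Its difference from untreated was 0.57 with the combination (SE 0.16, limma adjusted p = 0.00847), 0.44 with anti-LTβR (SE 0.12, limma adjusted p = 0.0214) and 0.08 with ADU-S100 (95% interval -0.19 to 0.35). Over the 3 chains and Cd74 the differences thus lay between 0.57 and 0.66 with the combination and between 0.44 and 0.52 with anti-LTβR. Within libraries their proportions varied little, and Cd74 stood at 1.81 ± 0.0884 (SD, n = 8) times H2-Ab1 in untreated and 1.77 ± 0.0771 (SD, n = 8) times in combination tumors. The ratios of H2-Aa, H2-Eb1 and Cd74 to H2-Ab1 did not pass in any comparison after adjustment over the 72 ratio tests made here, each a two-sided exact permutation test over all splits of 16 tumors into 8 and 8. The ratio nearest to the threshold was that of H2-Eb1 to H2-Ab1 in anti-LTβR against ADU-S100 tumors, higher by 0.05 on the log2 scale (adjusted exact p = 0.0799).

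Ciita, the transactivator of all these genes, was higher in every anti-LTβR tumor than in any untreated tumor. Untreated tumors had 539 to 935 normalized counts (median 810) and ADU-S100 tumors 755 to 1507 (median 901). Under anti-LTβR the range was 947 to 1502 (median 1246), and under the combination 856 to 1504 (median 1318). All 8 anti-LTβR tumors lay above all 8 untreated tumors, the only member of the 10 whose groups did not overlap in this comparison, where 0.809% of genes tested were higher without overlap. Of the combination tumors 6 of 8 lay above, and tumors 1 and 8, at 924 and 856, lay within the untreated range. The difference was 0.65 with anti-LTβR (SE 0.11, 1.57-fold, limma adjusted p = 0.00227), 0.61 with the combination (SE 0.14, 1.52-fold, limma adjusted p = 0.00244) and 0.27 with ADU-S100 (95% interval -0.02 to 0.56, limma adjusted p = 0.356). With the muscle sum as a covariate the first was 0.59 (limma adjusted p = 0.0102) and the second 0.48 (limma adjusted p = 0.00454).

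H2-DM, the peptide editor, is a dimer of the products of H2-DMa and H2-DMb1 or H2-DMb2, and its genes had the 3 smallest differences of the members between combination and untreated tumors. H2-DMa ranged from 854 to 1455 in untreated (median 1152), 943 to 1686 in ADU-S100 (median 1082), 1158 to 1610 in anti-LTβR (median 1408) and 1073 to 1808 in combination tumors (median 1486). It did not pass the test, with a difference of 0.33 in combination (SE 0.13, limma adjusted p = 0.0560) and 0.28 in anti-LTβR tumors (SE 0.10, limma adjusted p = 0.0686) against untreated. Leaving out a single tumor brought the first below 0.05 for 5 of the 16 tumors, so its side of the threshold rested on individual tumors.
H2-DMb1, the more abundant beta chain gene, had medians of 2059, 1843, 2343 and 2194 in untreated, ADU-S100, anti-LTβR and combination tumors, with differences of 0.15 in combination (95% interval -0.11 to 0.40) and 0.22 in anti-LTβR tumors (95% interval -0.02 to 0.46) against untreated. H2-DMb2 ranged from 110 to 206 in untreated and 151 to 224 in combination tumors (medians 143 and 187) and rose by 0.35 (SE 0.13, limma adjusted p = 0.0465). That call was lost when any of 9 of the 16 tumors was left out, with edgeR's RLE and TMM scalings, without the filter on low values, in the joint fit of 4 groups and with the muscle covariate (limma adjusted p = 0.126). In anti-LTβR tumors the difference of H2-DMb2 was 0.46 (SE 0.16, limma adjusted p = 0.0630).

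H2-O, the inhibitor of H2-DM, is a dimer of H2-Oa and H2-Ob and is best known from B cells. H2-Oa was scarce but had the largest difference of the 10 members between combination and untreated tumors, with 16.03 to 42.7 normalized counts in untreated (median 26.2), 23.7 to 57.9 in ADU-S100 (median 33.98), 27.1 to 76.0 in anti-LTβR (median 51.1) and 33.7 to 100.3 in combination tumors (median 60.3). Between combination and untreated tumors it rose by 1.15 (SE 0.23, 2.21-fold with a 95% interval of 1.57 to 3.12, limma adjusted p = 0.00102), and 6 of 8 combination tumors lay above every untreated tumor. With anti-LTβR it rose by 0.85 (SE 0.22, 1.80-fold, limma adjusted p = 0.0191), and with ADU-S100 the difference was 0.37 (95% interval -0.08 to 0.81). H2-Oa was the member that passed an adjusted p of 0.05 and a change of at least 2-fold in combination against untreated tumors, a rule that 6.12% of genes met. With the muscle sum as a covariate its difference was 0.92 with the combination (limma adjusted p = 0.00153), below 2-fold, and 0.62 with anti-LTβR (limma adjusted p = 0.0666), where the call was lost.

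H2-Ob ranged from 35.6 to 61.1 in untreated (median 44.0), 49.4 to 80.9 in ADU-S100 (median 57.4), 59.5 to 101.9 in anti-LTβR (median 75.4) and 38.5 to 119.4 in combination tumors (median 72.3). It rose by 0.68 with anti-LTβR (SE 0.14, 1.60-fold, limma adjusted p = 0.00632) and by 0.64 with the combination (SE 0.20, 1.56-fold, limma adjusted p = 0.0150). With ADU-S100 the difference was 0.37 (SE 0.13, 95% interval 0.09 to 0.65), the member with an unadjusted p below 0.05 in that comparison, and it did not pass after adjustment (limma adjusted p = 0.290). The median of H2-Ob was 40.2 in the 5 untreated tumors with little muscle RNA and 59.2 in the 3 with much, whose ranges (35.6 to 46.1 and 50.6 to 61.1) did not overlap, and 58.8 and 83.9 in the corresponding combination tumors. With the muscle sum as a covariate the differences from untreated were 0.49 with anti-LTβR (limma adjusted p = 0.0180), 0.42 with the combination (limma adjusted p = 0.0241) and 0.20 with ADU-S100.

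**Figure D2:**
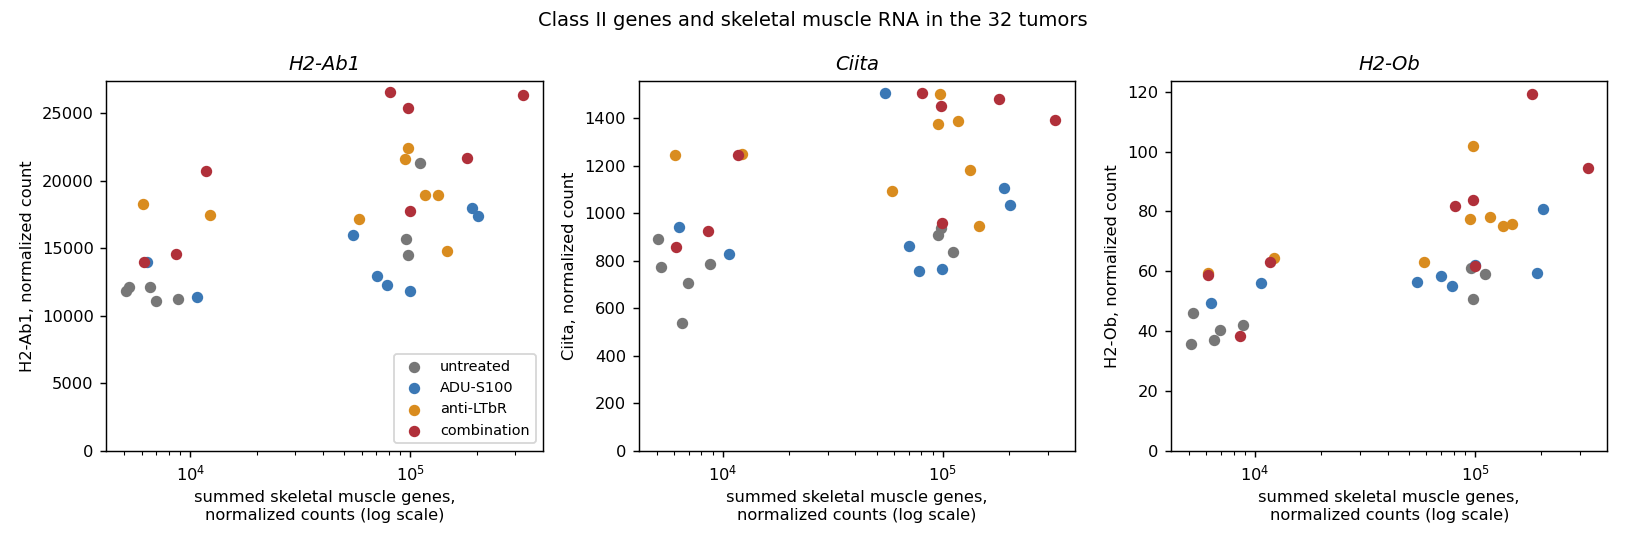
Normalized counts of H2-Ab1, Ciita and H2-Ob (vertical axes, from 0) against the summed normalized counts of 5 skeletal muscle genes (horizontal axis, log scale) in the 32 tumors, coloured by group. The tumors fall into 12 with sums up to 12211 and 20 with sums from 54556, and among untreated tumors the 5 with little muscle RNA (H2-Ab1 up to 12137) lie below the 3 with much (from 14502).

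H2-Ab1 showed the same division, with a median of 11794 in the 5 untreated tumors with little muscle RNA (11054 to 12137) against 15700 in the 3 with much (14502 to 21278), and 14589 against 25396 in combination tumors. In anti-LTβR tumors the medians were 17857 and 18971. Within the 20 tumors with much muscle RNA, the difference of H2-Ab1 between combination and untreated tumors was 0.46 (SE 0.18, limma adjusted p = 0.116) and between anti-LTβR and untreated 0.15 (SE 0.15, limma adjusted p = 0.598).

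**Figure D3:**
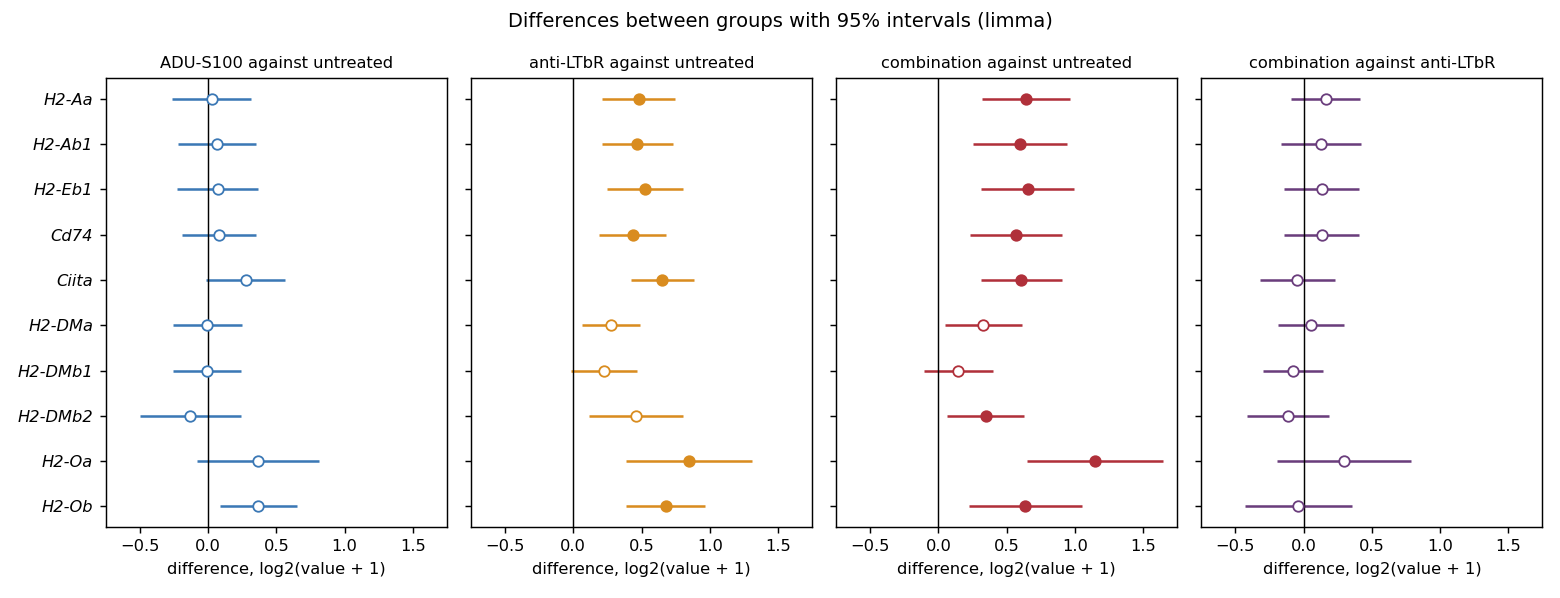
Differences of the 10 members on the log2(normalized count + 1) scale for 4 comparisons, with 95% intervals from limma. Filled points passed an adjusted p of 0.05, which 7 members did in anti-LTβR and 8 in combination tumors against untreated, and none did for ADU-S100 against untreated or combination against anti-LTβR.

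Combination and anti-LTβR tumors did not differ detectably in these genes. None of the 10 members passed, in a comparison where 26.6% of 16932 genes did, and none had an unadjusted p below 0.05. edgeR and DESeq2 on recovered reads called 0 of 7. The differences ran from -0.11 for H2-DMb2 (95% interval -0.41 to 0.19) to 0.30 for H2-Oa (95% interval -0.19 to 0.79), and that of H2-Ab1 was 0.13 (95% interval -0.16 to 0.42). The interaction of the agents asks whether both together differ from the sum of each alone. edgeR and DESeq2 called it for 0 of the 7 members they covered. limma called it for none of the 10 members, while 18.4% of 17649 genes passed. None had an unadjusted p below 0.05, and the interaction terms nearest to the threshold were negative, -0.41 for H2-Ob (95% interval -0.87 to 0.06, limma adjusted p = 0.223) and -0.32 for Ciita (95% interval -0.72 to 0.08, limma adjusted p = 0.267). None passed with the muscle covariate either, where 30.1% of genes did between combination and anti-LTβR tumors and 19% in the interaction. Within the 20 tumors with much muscle RNA (19.7% and 14.9% of genes) none passed, while H2-Ab1 differed by 0.31 between combination and anti-LTβR tumors (SE 0.13, limma adjusted p = 0.113) and its interaction was 0.53 (SE 0.22, limma adjusted p = 0.111). In that subset 3 members had an unadjusted p below 0.05 in the comparison and 4 in the interaction. Shares of all genes at that threshold, and for edgeR and DESeq2, are not given here, so these counts have no background beside them.

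Against ADU-S100 tumors, 6 of 10 members were higher in combination tumors, H2-Aa, H2-Ab1, H2-Eb1, Cd74, H2-DMb2 and H2-Oa, where 46.2% of 16811 genes passed and 20.2% were higher. H2-Aa differed by 0.61 (SE 0.13, limma adjusted p = 0.00119) and H2-Oa by 0.78 (SE 0.22, limma adjusted p = 0.00901), and 8 of 10 passed with the muscle covariate (49.9% of genes) and 7 in the tumors with much muscle RNA (37.8%), while 2 passed in libraries above 14000000 reads (40.1%). Between anti-LTβR and ADU-S100 tumors the 4 members H2-Aa, H2-Ab1, H2-Eb1 and Cd74 were higher, where 6.42% of 16649 genes passed and 3.38% were higher, and 7 of 8 anti-LTβR tumors exceeded every ADU-S100 tumor for H2-Aa and H2-Eb1. That count moved with individual tumors, as did the share of all genes called. It was 8 without ADU-S100 tumor 7 (8.94% of genes), 6 without anti-LTβR tumor 8 (8.35%) and 2 without any of ADU-S100 tumors 1, 2, 4 or 5 or anti-LTβR tumors 2, 4, 6 or 7 (2.53% to 4.85%). It was 0 with the replicate number as a block (2.67%), 4 with the muscle covariate (9.07% of genes) and 0 within the 20 tumors with much muscle RNA (3.17%). Both comparisons share the 8 ADU-S100 tumors, and both treated groups also enter the comparisons with untreated tumors.

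Per kilobase of annotated exon the members spanned a wide range. Mean normalized counts per kilobase in untreated tumors were 14732 for Cd74, 5613 for H2-Eb1, 5344 for H2-Ab1, 3041 for H2-Aa, 1199 for H2-DMb1, 338 for H2-DMa, 83.6 for both Ciita and H2-DMb2, 19.4 for H2-Oa and 8.64 for H2-Ob. The neighbours H2-Eb1 and H2-Ab1, and Ciita and H2-DMb2, lay within the SD of either gene over the 8 tumors. In combination tumors the values were 21939 for Cd74, 8803 for H2-Eb1 and 8132 for H2-Ab1, and 44.4 for H2-Oa and 13.98 for H2-Ob. Lengths are the union of all annotated exons, so genes with rare long isoforms are understated.

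Ratios within a library do not depend on its size factor, and 2 of 72 ratio tests passed, both of H2-O to H2-DM. The ratio of H2-Oa to H2-DMa was 0.0231 ± 0.00469 (SD, n = 8) in untreated and 0.0417 ± 0.00939 (SD, n = 8) in combination tumors, and all 8 combination tumors lay above all untreated tumors. The difference was 0.82 on the log2 scale (SE 0.16, adjusted exact p = 0.0112), and its unadjusted exact p of 0.000155 is the smallest that the splits of 16 tumors can give. The ratio of H2-Ob to H2-DMa rose by 0.40 with anti-LTβR (SE 0.10, adjusted exact p = 0.0224), with 6 of 8 tumors above every untreated tumor. The same ratio did not pass in ADU-S100 tumors, 0.37 above untreated (SE 0.13, adjusted exact p = 0.0966) with 7 of 8 tumors above every untreated tumor, or in combination tumors, 0.31 above untreated (SE 0.15, adjusted exact p = 0.162). Nor did the ratio of H2-DMa to H2-Ab1, which was -0.27 from untreated in combination tumors (SE 0.07, adjusted exact p = 0.0671). The part of muscle RNA in these ratios was not tested.

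**Figure D4:**
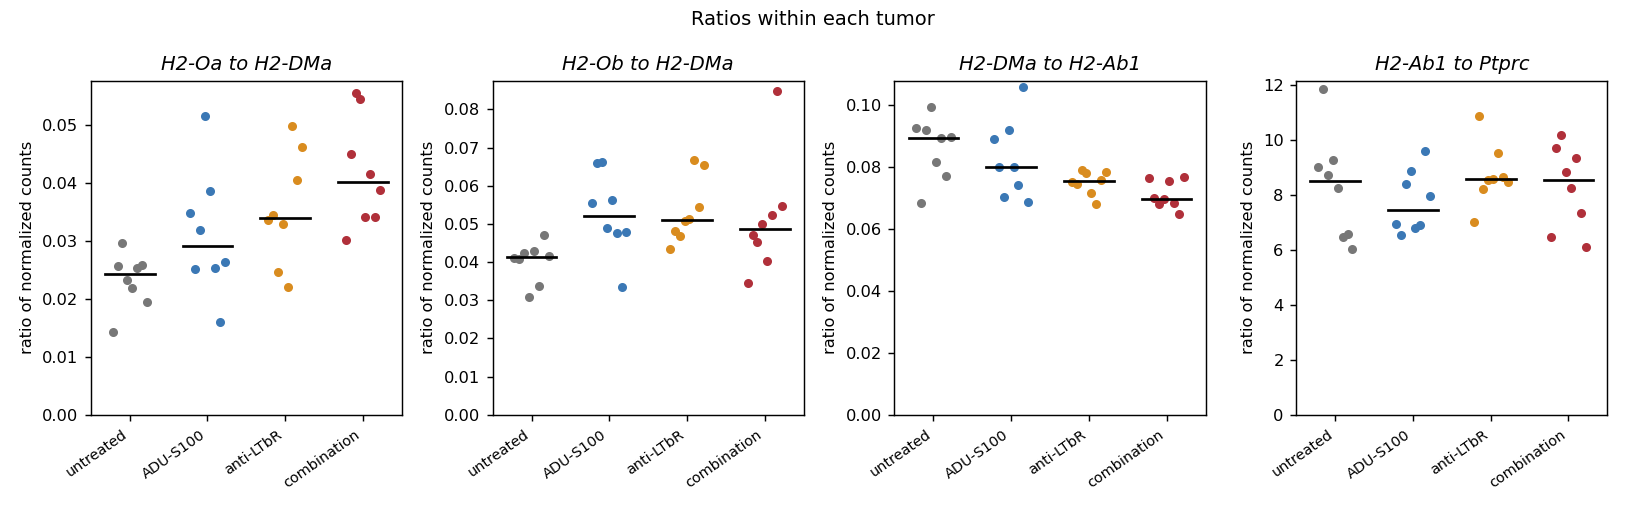
Ratios of normalized counts within each tumor (points, with group medians as bars and axes from 0) for H2-Oa to H2-DMa, H2-Ob to H2-DMa, H2-DMa to H2-Ab1 and H2-Ab1 to Ptprc. All combination tumors lie above all untreated tumors for H2-Oa to H2-DMa, and the groups overlap for H2-Ab1 to Ptprc.

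Leukocyte transcripts rose in the same comparisons as class II transcripts. Ptprc, which encodes the pan-leukocyte antigen CD45, was higher by 0.59 in combination (SE 0.09, limma adjusted p = 0.000128) and by 0.37 in anti-LTβR tumors (SE 0.09, limma adjusted p = 0.0139) than in untreated tumors. With the muscle covariate Ptprc passed in both comparisons. In the tumors with much muscle RNA it passed with the combination but not with anti-LTβR. The ratio of H2-Ab1 to Ptprc was 8.26 ± 1.92 (SD, n = 8) in untreated, 7.75 ± 1.13 (SD, n = 8) in ADU-S100, 8.73 ± 1.10 (SD, n = 8) in anti-LTβR and 8.27 ± 1.51 (SD, n = 8) in combination tumors. On the log2 scale, combination tumors differed from untreated by 0.01 (SE 0.15, adjusted exact p = 0.984). The ratio of H2-Ab1 to Csf1r, the receptor that marks macrophages, likewise differed by 0.00 (SE 0.12, adjusted exact p = 0.997). The ratio of H2-Ab1 to Cd79a, a component of the B cell receptor, differed by -0.997 (SE 0.41, adjusted exact p = 0.148), and Cd79a itself rose by 1.60 (SE 0.38, 3.02-fold, limma adjusted p = 0.00314).

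Markers of the cells that make class II constitutively, and of other cell types, were counted in the same comparisons. Between combination and untreated tumors, 7 of 8 tested B cell markers, 5 of 10 macrophage markers, 4 of 9 dendritic cell markers and 7 of 7 T cell markers were higher, and none of these lists held a lower one, where 43.2% of all genes passed and 19.6% were higher. The sum of 10 B cell markers ranged from 157 to 444 in untreated and 382 to 1194 in combination tumors, that of macrophage markers from 18763 to 34089 and 24766 to 38109, and that of dendritic cell markers from 4213 to 5363 and 5232 to 6434. Fibroblast markers (6 of 6) and endothelial markers (5 of 5) were higher as well, and 3 of 6 epithelial markers were lower. Between anti-LTβR and untreated tumors 2 of 8 B cell, 3 of 10 macrophage, 2 of 9 dendritic cell and 3 of 7 T cell markers were higher, with 0 of 6 fibroblast markers, where 15.3% of all genes passed and 7.21% were higher. In that comparison 2 of 5 endothelial markers were higher and 3 of 6 epithelial markers lower. With the muscle covariate the B cell, macrophage, dendritic cell and T cell markers that were higher numbered 6, 4, 4 and 7 with the combination (40.6% of all genes called) and 2, 3, 3 and 1 with anti-LTβR (8.17%). In the 20 tumors with much muscle RNA they numbered 2, 3, 2 and 2 with the combination (12%) and 0 of each list with anti-LTβR (0.337%). Higher fibroblast, higher endothelial and lower epithelial markers numbered 6, 5 and 3 with the combination under the covariate. With anti-LTβR they numbered 0, 1 and 1. In the 20 tumors these counts were 5, 4 and 2 with the combination and 0, 0 and 0 with anti-LTβR. Between ADU-S100 and untreated tumors no marker of these lists passed. The part of each cell type in the class II levels was not tested.

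The genes upstream of Ciita in interferon-γ signalling were counted as a list of 8. Of these, 6 were higher in combination than in untreated tumors (19.6% of all genes) and 4 in anti-LTβR tumors (7.21% of all genes), with list medians of 0.35 and 0.27 against -0.02 and 0.00 over all genes tested. Ifng, the cytokine itself, had mean normalized counts of 40.9 (untreated), 44.2 (ADU-S100), 81.6 (anti-LTβR) and 106.7 (combination). It rose by 1.06 with anti-LTβR (SE 0.22, limma adjusted p = 0.00665) and by 1.34 with the combination (SE 0.30, limma adjusted p = 0.00174). Irf1, a transcription factor that interferon-γ induces and that acts on a Ciita promoter, rose by 0.41 with anti-LTβR (limma adjusted p = 0.00222) and by 0.42 with the combination (limma adjusted p = 0.00758). The kinase genes Jak1 and Jak2 did not pass in either comparison. With the muscle covariate 5 genes of the list were higher with the combination (40.6% of all genes called) and 4 with anti-LTβR (8.17%). In the tumors with much muscle RNA 0 were higher in either comparison (12% and 0.337% of all genes called).

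Of the 8 genes for proteins that bind class II promoters, 1 was higher and 3 were lower in combination than in untreated tumors, and the other 4 did not pass, a share near the 43.2% of all genes that passed. With anti-LTβR 1 was higher and 2, Nfyb and Nfyc, were lower, where 15.3% of all genes passed. Rfx5, the DNA-binding subunit of the RFX complex, had means of 273 and 417 normalized counts in untreated and combination tumors, a rise of 0.60 (SE 0.07, limma adjusted p = 2.68e-05), and rose by 0.46 with anti-LTβR (limma adjusted p = 0.000316). Its partners Rfxap and Rfxank had differences of 0.04 and 0.11 in combination tumors that did not pass. Nfyb, a subunit of NF-Y, fell by 0.34 (SE 0.05, limma adjusted p = 0.000123) and Creb1 and Atf1, which bind the X box, fell by 0.23 (limma adjusted p = 0.0345) and 0.18 (limma adjusted p = 0.00163) with the combination. With the muscle covariate 1 gene of the list was higher and 2 were lower with the combination (40.6% of all genes called). With anti-LTβR 1 was higher and 0 were lower (8.17%). In the tumors with much muscle RNA 1 was higher and 1 lower with the combination (12%), and 0 passed with anti-LTβR (0.337%).

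Of 10 genes for processing of the invariant chain, antigen and class II molecules, 5 were higher in combination (19.6% of all genes, with 43.2% passing in either direction) and 4 in anti-LTβR tumors (7.21% and 15.3%) than in untreated tumors, with none lower. Ctss, the cathepsin that trims the invariant chain in antigen-presenting cells, rose by 0.64 with the combination (SE 0.15, limma adjusted p = 0.00230) and 0.40 with anti-LTβR (limma adjusted p = 0.0208). Ifi30, a lysosomal thiol reductase, rose by 0.45 (limma adjusted p = 0.00699) and Ctsb by 0.51 (limma adjusted p = 0.000924) with the combination. Ctsl, the cathepsin that takes this role in thymic epithelium, had a difference of -0.20 (limma adjusted p = 0.0574). Marchf1, a ubiquitin ligase that removes class II from the surface, rose by 0.61 with the combination (limma adjusted p = 0.00190) and 0.45 with anti-LTβR (limma adjusted p = 0.00710). With the muscle covariate 4 genes of the list were higher with the combination (40.6% of all genes called) and 2 with anti-LTβR (8.17%). In the tumors with much muscle RNA 1 and 0 were (12% and 0.337%).

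The members varied together from tumor to tumor within groups. After the group means were subtracted, Pearson's r over the 32 tumors was 0.98 between H2-Aa and H2-Ab1, 0.98 between Cd74 and H2-Ab1 and 0.94 between H2-DMa and H2-DMb1, and lower for the scarce genes, 0.53 between H2-Oa and H2-Ob and 0.27 between Ciita and H2-Oa. These values share library, muscle RNA and cell content, and are given as a description. The 10 genes outside the members most like the mean of H2-Aa, H2-Ab1, H2-Eb1 and Cd74, among 13478 with a mean of at least 50, began with Irf8 (r = 0.91), a transcription factor of dendritic cells, macrophages and B cells, and went on with AW112010, Il18bp, Entpd1, Fgl2, Slamf8, Lyl1, P2ry14, Lpcat2 and Il2rg (r = 0.88). With group means subtracted the order began with Lair1 (r = 0.89), an inhibitory receptor of leukocytes, followed by Cyp4f18, Il18bp, AW112010, Fgl2, Irf8, Ly86, Entpd1, Gbp2 and Lpcat2 (r = 0.81). Most like Ciita within groups were Map4k1 (r = 0.79), Slc8a1, Dock10, Wdfy4 and Nod1. Most like H2-Ob were Pknox2 (r = 0.82), Neurl1a, Rcsd1, Pink1 and Tnnc1 (r = 0.80), of which Tnnc1 encodes a troponin of striated muscle.

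H2-Ab1 was compared within groups with Ciita, Ifng, Csf1r and Cd79a, and Ciita with Ifng and H2-Ob with Cd79a, 6 relations chosen after values had been seen, with permutation p-values adjusted over the 6. H2-Ab1 followed Ciita (r = 0.74, adjusted permutation p = 6e-05, rho = 0.82, adjusted permutation p = 6e-05, unadjusted p of 1e-05 being the smallest 100000 permutations can give), with 0.81 when the 2 tumors farthest from the median of Ciita were left out. It also followed Ifng (r = 0.65, adjusted permutation p = 0.00118, rho = 0.65, adjusted permutation p = 0.0008, and 0.58 without the 2 farthest tumors). With Csf1r the values were r = 0.71 (adjusted permutation p = 0.00039) and rho = 0.74 (adjusted permutation p = 0.00015), and 0.69 without the 2 farthest tumors. In the 12 tumors with little and the 20 with much muscle RNA, r was 0.53 and 0.71 for Ciita, 0.62 and 0.52 for Ifng and 0.68 and 0.77 for Csf1r, positive on both sides of that division. Within the 4 groups of 8 they ranged from 0.39 to 0.94 for Ciita, 0.16 to 0.85 for Ifng and 0.22 to 0.96 for Csf1r.
With Cd79a the relation of H2-Ab1 did not pass (r = 0.32, adjusted permutation p = 0.0815, rho = 0.31, adjusted permutation p = 0.0974, and 0.22 without the 2 farthest tumors), and r was -0.30 in the tumors with little and 0.39 in those with much muscle RNA. H2-Ob had r = 0.46 with Cd79a (adjusted permutation p = 0.0158) but rho = 0.35 (adjusted permutation p = 0.0793), 0.57 without the 2 farthest tumors, and 0.05 in the tumors with little against 0.55 in those with much muscle RNA. Ciita had r = 0.45 with Ifng (adjusted permutation p = 0.0248, rho = 0.46, adjusted permutation p = 0.0227), which dropped to 0.31 without the 2 tumors farthest in Ifng and was 0.53 and 0.26 in the tumors with little and much muscle RNA.

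**Figure D5:**
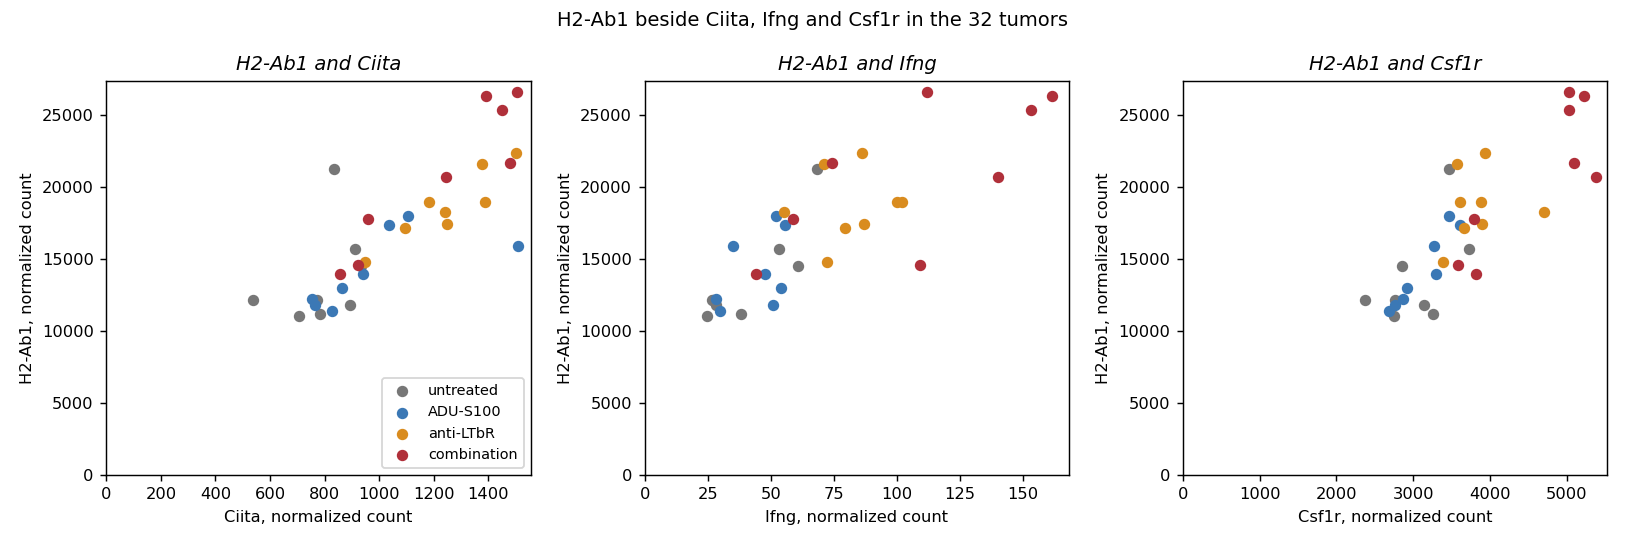
Normalized counts of H2-Ab1 (vertical axes) against Ciita, Ifng and Csf1r (horizontal axes), all from 0, in the 32 tumors coloured by group. H2-Ab1 rises with each of the 3 genes, and untreated tumor 2 (H2-Ab1 21278, Ciita 836) and ADU-S100 tumor 7 (Ciita 1507) stand apart in the plot with Ciita.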

How the data were processed

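Bulk RNA-seq of 32 KPC tumors was analysed in 4 groups of 8 given by the sample labels. The labels give each library as a separate tumor, and p-values measure the spread between these tumors. The values the authors deposited are a signal, reads per gene divided by a size factor per library. The submitters' processing notes name cutadapt 1.9, FastQC, HISAT2, StringTie, STAR, Partek, DESeq2, edgeR and mm39, and which of them made each table is not settled. A larger deposited table (52 libraries, 27894 genes) holds such a signal too, from which reads were recovered. Of values up to 1000 reads 100% were whole to within 0.1 reads, and higher values were not checked. In 7 of the 32 tumors a read was worth within 1% of 1 normalized count, so low values there cannot be told from rounded ones. The larger table lacks H2-Oa, H2-DMa and H2-Eb1, so count models covered 7 members. A deposited table of the authors' own enrichment scores and p-values was not used.

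limma 3.58.1 (R 4.3.3) was fitted to log2(value + 1) of each pair of groups (16 tumors), and of all 32 for the interaction, after filterByExpr (minimum 10), with adjustment over all genes tested. The script was tested on simulated data. No pair of tumors held identical values. All 10 members are named, with lists of promoter-binding, interferon-γ, processing and marker genes and the genes most alike in pattern. The members and lists were chosen with earlier results of these data known. An allele of the cells and the values of a gene of the lists are not reported here. Alternatives were a pseudocount of 0.5, other filters, the replicate block, a joint fit of 4 groups, a 2-fold threshold, and edgeR 4.0.16 and DESeq2 1.42.0 on recovered reads. Leaving out each tumor, a depth minimum and the muscle corrections were added after seeing the data.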

Additional observations from a re-analysis of the deposited data

Results flagged for a closer look

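In groups of 8, 7 of the 40 gene-and-group sets held a tumor whose gap to its nearest neighbour exceeded Dixon's 95% critical value as a share of the range. For independent sets chance alone gives about 1 in 20. The members vary together (r = 0.98 for H2-Aa and H2-Ab1, 0.94 for H2-DMa and H2-DMb1), so the count cannot be set against that share. Untreated tumor 2 stood above its group for H2-Aa (18740 normalized counts, next 12900) and H2-Ab1 (21278, next 15700), and it was among the 3 untreated tumors with much muscle RNA. ADU-S100 tumor 7 stood above its group for Ciita (1507, next 1105), H2-DMa (1686, next 1239) and H2-DMb1 (2834, next 2214). H2-Ob was far from the rest in ADU-S100 tumor 3 (80.9, next 62.2) and in anti-LTβR tumor 6 (101.9, next 78.2).

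The larger table also holds 20 libraries of another experiment with KPC tumors, 15 of which carry contradicting treatment labels and entered no comparison. All 7 members listed there had signal in all 20 libraries, and the lowest values were 9913 for H2-Aa, 8582 for H2-Ab1, 24872 for Cd74, 520 for Ciita, 1580 for H2-DMb1, 163 for H2-DMb2 and 49.1 for H2-Ob. The highest values were 403757 for H2-Ab1 and 537501 for Cd74 among the 5 libraries with a group, and 128425 and 197930 among the 15 without, against at most 27834 and 50383 in the 32 tumors in the same table. In the 5 libraries the medians were 28845 and 60638, and both highest values came from 1 library of 8716257 recovered reads, each worth 3.78 normalized counts, with 30089 and 69406 the next highest.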

How the results depend on the processing

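No alternative changed the count of members called for ADU-S100 against untreated, combination against anti-LTβR or the interaction, which was 0 in each. Between combination and untreated tumors the count of 8 became 5 of 7 with edgeR's RLE and 5 of 7 with its TMM scaling (limma called all of these 7 but H2-DMb1). It was 1 with a 2-fold threshold (6.12% of all genes), 4 in libraries above 14000000 reads (34.3%) and 2 in tumors with much muscle RNA (12%). Between anti-LTβR and untreated tumors the count of 7 became 0 with the 2-fold threshold. It was 2 with the muscle covariate (8.17% of all genes) and 0 in tumors with much muscle RNA (0.337%). Between combination and ADU-S100 tumors the count of 6 became 0 with the 2-fold threshold and 2 in libraries above 14000000 reads (40.1% of all genes). Between anti-LTβR and ADU-S100 tumors the count of 4 became 1 in the joint fit, 0 with the 2-fold threshold and 0 in tumors with much muscle RNA (3.17% of all genes). Shares of all genes are not given here for edgeR, DESeq2, the joint fit or the 2-fold threshold outside combination against untreated. A fall in those counts cannot be told from a fall over all genes. Leaving out 1 tumor at a time gave 7 to 9, 7 to 9, 0 to 0, 0 to 0, 6 to 8 and 2 to 8 members for combination, anti-LTβR and ADU-S100 against untreated, combination against anti-LTβR and ADU-S100, and anti-LTβR against ADU-S100. In the same order 38.4% to 43%, 9.4% to 17.4%, 0% to 0.0359%, 20.3% to 29.5%, 42.1% to 46.1% and 2.53% to 8.94% of all genes were called. Both ratios that passed use H2-DMa and could not be tested in the larger table, and of the 7 pairs it holds 0 tests passed there and 0 in the table of 32 libraries. The smaller subsets hold fewer samples, and the cause of the other changes was not tested.

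With the replicate number as a block the members called were 9 for combination (41% of all genes) and 8 for anti-LTβR (9.95%) against untreated, 6 for combination (43.3%) and 0 for anti-LTβR (2.67%) against ADU-S100, and 0 in ADU-S100 against untreated, combination against anti-LTβR and the interaction. Whether the numbers pair the tumors is not settled. The mean correlation of same-numbered tumors' deviations ran from -0.085 to 0.186, against -0.029 to 0.010 for other numbers. At most 6 of 8 pairs in any comparison were over 0.1. A tumor correlated best with its own number for 0 to 3 of 8.

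Direction changed in 63 fits of single members, none of them called (lowest limma adjusted p = 0.447). For ADU-S100 against untreated the muscle covariate gave -0.13 for H2-Aa, -0.10 for H2-Ab1, -0.10 for H2-Eb1 and -0.071 for Cd74, tumors with much muscle RNA gave -0.27, -0.22, -0.24 and -0.19, and libraries above 14000000 reads gave 0.029 for H2-DMa and 0.026 for H2-DMb1. For combination against anti-LTβR those libraries gave -0.012 for H2-Ab1, -0.017 for H2-Eb1 and -0.093 for H2-DMa. In that comparison Ciita was 0.0021 with RLE, 0.0015 with TMM, 0.0021 with DESeq2 and 0.12 in tumors with much muscle RNA, H2-DMb2 was 0.055 in the latter, and H2-Ob was 0.042 with RLE, 0.041 with TMM, 0.025 with library totals, 0.041 with DESeq2 and 0.15 in tumors with much muscle RNA. For the interaction, libraries above 14000000 reads gave -0.028 for H2-Aa, -0.10 for H2-Ab1, -0.11 for H2-Eb1, -0.090 for Cd74, -0.12 for H2-DMa and -0.28 for H2-DMb2. The interaction of H2-DMb1 was 0.036 with the muscle covariate and 0.14 in tumors with much muscle RNA, that of H2-Oa 0.16 and 0.47, that of H2-Ob 0.035 in those tumors, and that of H2-DMb2 -0.0048 with TMM and -0.016 with library totals. Leaving out 1 tumor gave -0.10 to 0.024 for Ciita and -0.14 to 0.087 for H2-Ob in combination against anti-LTβR, and -0.020 to 0.13 for H2-Aa, -0.085 to 0.043 for H2-DMa and -0.091 to 0.032 for H2-DMb1 in ADU-S100 against untreated.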
